A study of Mus musculus with 12 samples.

Results

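Microglia of the mouse hippocampus were compared between animals whose astrocytes carried an adenosine A2A receptor transgene and animals whose astrocytes carried a fluorescent protein. The comparison rests on 6 of the 12 RNA sequencing libraries of the series, those of the CD11b-positive fraction, chosen by their labels alone. The 3 AAV-A2A libraries are named A2A-2343, A2A-2344 and A2A-2347, and the 3 AAV-GFP libraries GFP-2328, GFP-2329 and GFP-2331. Unless a library is named, values are given in this order. The other 6 libraries are of the ACSA-2-positive, astrocyte-enriched fraction, again with 3 per vector. They are used here to find genes that are more abundant in the CD11b-positive fraction. All animals were C57Bl6/J males that received an AAV2/9 vector into the CA1 area on both sides at 2 months of age and were studied 2 months post-injection, at 4 months of age. The AAV-A2A vector carries the mouse receptor gene Adora2a and the AAV-GFP vector carries enhanced GFP, both behind GfaABC1D, a short promoter derived from the astrocytic Gfap gene. No library without a vector was analysed, so that whatever the vector or the surgery does by itself is common to both groups. CD11b-positive cells were pulled with magnetic beads from the suspension that the myelin and ACSA-2 beads had left behind. A legend of the study counts 3 animals per group for the astrocyte sequencing, and those on the microglial sequencing give no number. In the CD11b comparison p-values measure the spread between the 3 libraries of a group.

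Microglia are the resident macrophages of the brain parenchyma. They depend on signalling through the receptor of colony-stimulating factor 1 and on transforming growth factor beta, and in the healthy brain they express a set of homeostatic genes, among them the purine receptor P2ry12 and the fractalkine receptor Cx3cr1. When they respond to injury or disease they can lower that set and express integrins, Toll-like receptors, complement and interferon-stimulated genes. CD11b, encoded by Itgam, is an integrin subunit that is shared by microglia, border macrophages, monocytes and neutrophils, so beads against it collect all of these.

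The libraries held 36098295 to 53206974 counts on genes, and on their first principal component they did not group by vector. The second, with 18.13% of the variance, stood at 30.07, -80.25 and -90.3 in AAV-A2A libraries. In AAV-GFP libraries it was 23.65, 45.27 and 71.56, so that only A2A-2343 lay among the controls. The first principal component of log2 CPM (counts scaled to a common library total, with TMM normalization) took 60.82% of the variance and set A2A-2343 (-119.1), A2A-2344 (-115.2) and GFP-2331 (-102.1) apart from A2A-2347 (77.13), GFP-2328 (144.7) and GFP-2329 (114.6). The summed share of 32 homeostatic microglia genes in a library's counts was 9.54, 8.76 and 4.46% in AAV-A2A and 1.93, 3.45 and 9.60% in AAV-GFP animals. The share of 25 choroid plexus genes was 0.0225, 0.0187 and 7.14% against 13.5, 10.3 and 0.0331%. Thus A2A-2347, GFP-2328 and GFP-2329 carried much choroid plexus RNA and less microglial RNA, and the groups overlapped for both lists (exact two-sided permutation test over the libraries, p = 0.4 and 0.2, with 0.1 the smallest p that 3 against 3 allow). The oligodendrocyte list took 0.398, 0.332 and 3.51% against 4.25, 3.19 and 0.352%, mostly through Enpp2, a gene that choroid plexus cells also express strongly and that alone held 3.04, 3.68 and 2.69% of the counts in A2A-2347, GFP-2328 and GFP-2329. Without Enpp2, a choice made after seeing the data, the list took 0.394, 0.331 and 0.473% against 0.575, 0.502 and 0.347%. Erythroid genes did not follow that division. They took 0.0612, 0.0665 and 0.0423% of the counts in AAV-A2A and 0.357, 0.741 and 0.138% in AAV-GFP animals, without overlap (exact permutation p = 0.1; Benjamini-Hochberg adjusted p = 0.427 over 32 lists). The labels were used as given, and whether any library carries the label of the other group was not tested. In such bulk suspensions fewer cells of a type and less RNA per cell cannot be told apart.

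**Figure D1:**
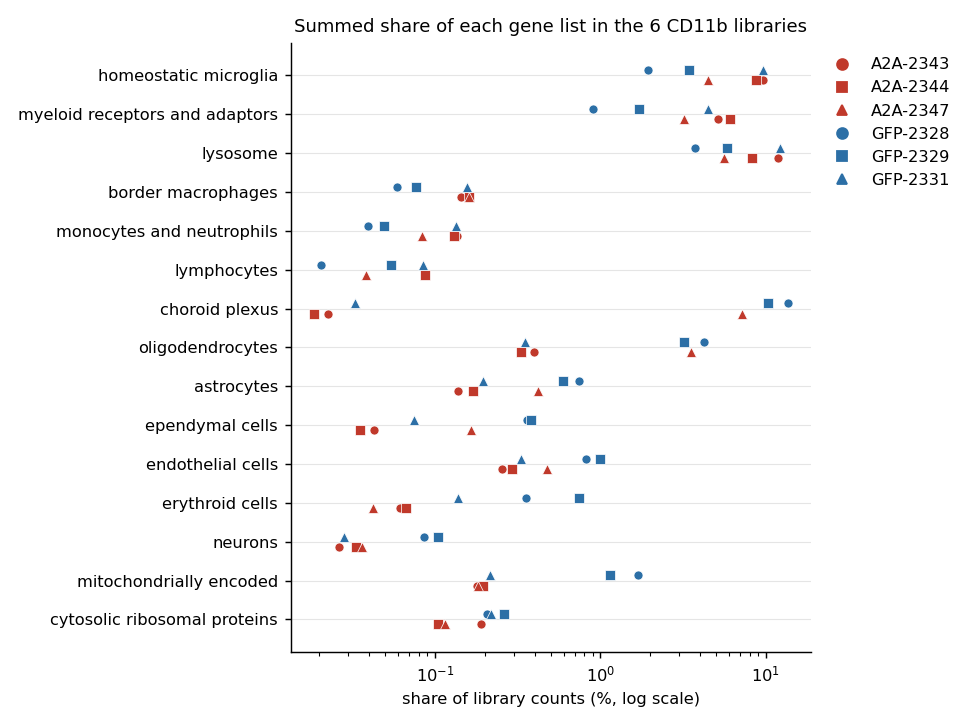
Share of library counts (%, log scale) that each gene list took in the 6 CD11b libraries, with 1 symbol per library, AAV-A2A in red and AAV-GFP in blue. Choroid plexus genes lay under 0.05% in A2A-2343, A2A-2344 and GFP-2331 and above 7% in the other 3 libraries, while erythroid genes were lower in every AAV-A2A library.

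To keep genes of myeloid cells apart from RNA of other cells, a myeloid class was formed. It holds the tested genes whose mean log2 CPM over all 6 CD11b libraries exceeded that over all 6 ACSA-2 libraries by at least 2, and that were in no list of other cell types. The class did not use the vector labels, but its mean over the CD11b libraries includes the AAV-A2A libraries. A gene high only there can enter the class, and a gene low there can drop out. The numbers of higher and lower genes in the class therefore follow partly from its definition. Dna2 had 0.729, 2.02 and 3.55 CPM in CD11b libraries of AAV-GFP animals, beside 2.11, 1.23 and 0.697 CPM in ACSA-2 libraries with that vector. The class had 2850 of the 16949 tested genes (16.8%), among them 281 of the 469 tested members of 15 hand-written myeloid lists. Its name stands for abundance over the ACSA-2 fraction and does not show that a gene is of myeloid origin. Cells other than microglia can still be in it, since choroid plexus RNA was also more abundant in some CD11b libraries than in the ACSA-2 libraries. A gene is called separated below when its 3 AAV-A2A libraries all lay above, or all below, the 3 AAV-GFP libraries.

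The gene of the vector, Adora2a, was measured first. It had 17.8, 43.3 and 16.3 CPM in the AAV-A2A and 3.96, 4.79 and 8.07 CPM in the AAV-GFP libraries of CD11b-positive cells. Every AAV-A2A library was thus above every AAV-GFP library, with a log2 FC of 2.20 (SE 0.54, n = 3 per group; edgeR adjusted p = 0.28). On the homeostatic scale, where counts are divided by the library's summed homeostatic microglia genes, its groups overlapped, at 8.8, 26 and 20 against 12.3, 8.07 and 4.24 scaled CPM (log2 FC 1.16, SE 0.84). Under TMM, then, Adora2a followed the labels in the CD11b libraries, and relative to microglial RNA it did not separate them. In the ACSA-2 libraries of AAV-A2A animals it stood at 805, 681 and 867 CPM, against 22.7 to 25.7 CPM in AAV-GFP animals (log2 FC 5.02, SE 0.21; edgeR adjusted p = 1.55e-05). Adora2a was therefore outside the myeloid class, and how much of its signal among CD11b-positive cells comes from RNA of astrocytes was not tested.

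No gene passed the thresholds in the CD11b comparison. With edgeR's quasi-likelihood test 0 of 16949 genes (0%) reached an adjusted p under 0.05 together with an absolute log2 FC over 0.32, while 1641 genes were higher and 1063 lower at an unadjusted p under 0.05. The common biological coefficient of variation was 0.707. DESeq2 called 455 genes (1.5% of those it tested), 239 higher and 216 lower, and limma-voom with sample weights called 2783. Those weights ran from 0.311 for GFP-2331 and 0.476 for A2A-2343 to 4.4 for GFP-2329, so that the voom calls rest mostly on the other libraries. Since the choice of test decides the number of calls, the following describes which genes did not overlap between the groups and gives no test of that count.

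Under TMM normalization 2128 genes were separated higher (12.6% of those tested) and 1843 lower (10.9%). Of the myeloid class 618 were higher (21.7%) and 67 lower (2.35%), and the median log2 FC of the class was 0.61 beside -0.05 over all tested genes. These counts moved with single libraries. They were largest without GFP-2331, at 1354 higher and 221 lower. Without A2A-2347 they were 935 and 148, without A2A-2343 855 and 139, without A2A-2344 691 and 113, and without GFP-2328 675 and 177. In 515 of the 618 genes GFP-2331 was the highest AAV-GFP library, and the lowest AAV-A2A library exceeded the highest AAV-GFP library by a median ratio of 1.25. Most of the separated genes therefore lay close to overlap, with GFP-2331 as the nearest control.

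Because the libraries held unequal amounts of microglial RNA, each gene was also set against the summed counts of the homeostatic microglia list of its own library. This scaling moved the median log2 FC of all genes from -0.05 to -1.20. Under it 166 genes were separated higher (0.979%) and 1435 lower (8.47%). The class held 138 of the 166 higher genes (83.1%) and 266 of the 1435 lower ones (18.5%), beside 16.8% of all tested genes. This scaling favours genes that follow microglial RNA, and the class favours them too, so its share of the higher genes is partly built in. Under both scalings 76 genes of the class were higher, 57 of them with a mean of at least 5 CPM, and 32 were lower, 3 of them with at least 5 CPM. No class gene was separated in opposite directions by the 2 scalings.

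**Figure D2:**
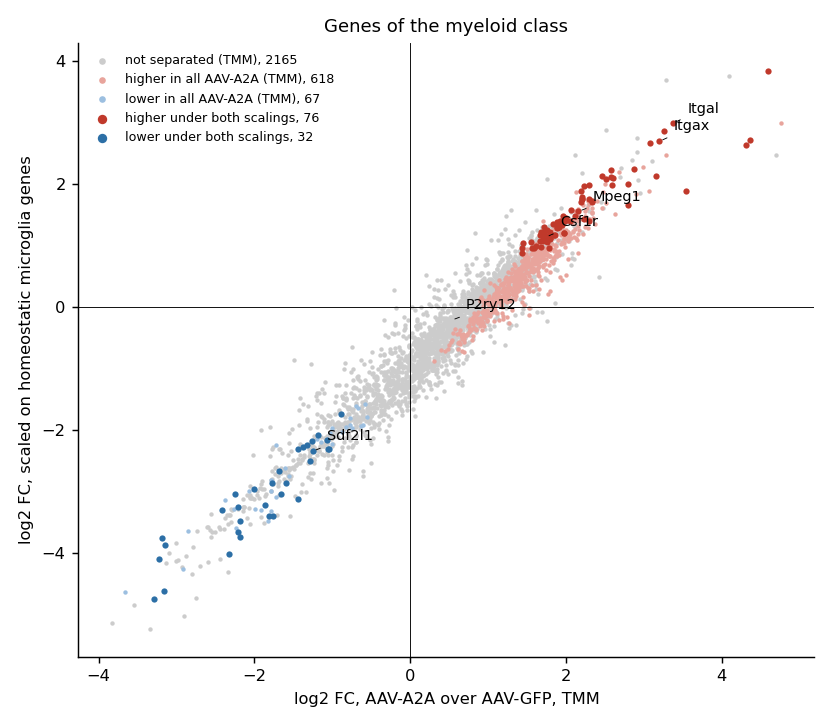
Log2 FC of the 2850 genes of the myeloid class, AAV-A2A over AAV-GFP, with TMM normalization on the horizontal axis and after scaling on the homeostatic microglia genes on the vertical axis. Light red points are the 618 genes separated higher under TMM, dark red the 76 higher under both scalings and dark blue the 32 lower under both, and most light red points lie nearer to 0 on the vertical than on the horizontal axis.

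Transcript length moved with the separation. The longest annotated transcript had a median of 4355 bases among the 618 higher genes of the class, 2766 bases among those not separated and 1728 bases among the 67 lower genes. Class genes averaging 5 CPM or more were divided by length, and those with the longest transcripts (at least 5106 bases) deviated from the mean over libraries by -0.02, 0.83 and 0.76 log2 units in the AAV-A2A and by -0.81, -0.61 and -0.16 in the AAV-GFP libraries. Those with the shortest transcripts (at most 2648 bases) deviated by 0.63, 0.08 and -0.22, and by -0.81, -0.22 and 0.55. Long transcripts were thus relatively high in A2A-2344 and A2A-2347 but not in A2A-2343. When each library's trend on transcript length and GC content was removed by an offset, 1359 genes (8.02%) were separated higher and 1171 (6.91%) lower, with 337 and 53 in the class. With that offset and the homeostatic scaling together, 209 (1.23%) were higher and 1100 (6.49%) lower, with 170 and 178 in the class. Under all 4 scalings 38 of all tested genes were separated higher (0.224%) and 226 lower (1.33%). The class held 29 of the 38 higher genes (1.02% of the class) and 12 of the 226 lower ones (0.421%).

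Of these 29 higher genes of the class, 14 had a mean of at least 5 CPM, and they were Itgal, Itgax, Cd244a, Sema4d, Dna2, Abcc3, Adgre4, Cnr2, Emilin2, Tgfbr1, Trim36, Mpeg1, Lpar5 and Themis2. That mean is over both groups, so a gene can reach it through the AAV-A2A libraries alone, which favours higher genes over lower ones. In the AAV-GFP libraries the mean was 2.19 CPM for Itgal, 2.3 for Itgax and 1.72 for Cd244a. It was 2.1 there for Dna2, 3.81 for Adgre4 and 3.91 for Emilin2, and above 5 CPM for the others of the set. The log2 FC of the 14 ran from 1.96 to 3.37 under TMM and from 1.1 to 2.31 with both the offset and the homeostatic scaling. Adjusted p-values from edgeR lay between 0.28 and 0.3 for all 14, while 8 passed with DESeq2 and 14 with limma-voom and sample weights. GFP-2331 was the highest control library for each of the 14. The lowest AAV-A2A library exceeded it by a ratio of 1.06 to 4.31 under TMM. The other 15 genes had a mean between 0.409 and 4.31 CPM. Cnr2, Emilin2, Trim36, Mpeg1, Lpar5 and Themis2 are described because they are in this set, which was formed after values had been seen.

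The largest log2 FC of the set were those of genes of leukocyte integrins, the adhesion receptors of which CD11b is a member. Itgal, which encodes CD11a, the alpha subunit of LFA-1, had 19.5, 11.6 and 36.8 CPM in AAV-A2A and 0.848, 1.88 and 3.86 CPM in AAV-GFP animals (log2 FC 3.37, SE 0.74, n = 3 per group; edgeR adjusted p = 0.28). The lowest AAV-A2A library held 410 counts and the highest AAV-GFP library 152, both well above a few reads. Itgax encodes CD11c, which marks dendritic cells and a subset of responding microglia. It had 19.9, 21.6 and 21.8 CPM against 1.02, 1.24 and 4.62 CPM (log2 FC 3.20, SE 0.68; edgeR adjusted p = 0.28). For Itgax the AAV-A2A libraries were nearly alike under TMM, and GFP-2331, the highest control, lay below them. The part of the unequal RNA composition of the libraries in this difference was not tested. Relative to the homeostatic genes, Itgax stood at 9.84, 12.9 and 26.8 against 3.17, 2.10 and 2.43 scaled CPM, and Itgal at 9.63, 6.96 and 45.2 against 2.62, 3.16 and 2.03. In both genes A2A-2347 was then the highest library and all control libraries lay below all AAV-A2A libraries.

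Both genes lie with Itgam in a cluster of integrin genes on chromosome 7 of GRCm38, Itgal at 127296260 to 127335138, Itgam at 128062640 to 128118491 and Itgax at 128129547 to 128150657. All 3 are protein-coding genes on the plus strand. Itgam, the gene of the antigen that the beads bind, had 164, 304 and 171 CPM against 25, 51.1 and 107 CPM (log2 FC 1.81, SE 0.58; edgeR adjusted p = 0.28). It was separated under TMM but not against the homeostatic genes, where it stood at 81.1, 183 and 211 against 77.4, 86.1 and 56.0 scaled CPM. The neighbouring Itgad, at 128154376 to 128223816, had 3, 6 and 0 counts against 0, 11 and 5 and did not pass the filter on low counts. It was looked up for its place beside Itgax, after the values of the cluster had been seen.

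Other surface receptors of immune cells were in the same set. Cd244a, a receptor of the SLAM family known from natural killer cells and some myeloid cells, had 18.1, 7.89 and 11.7 CPM in AAV-A2A and 0.907, 0.774 and 3.48 CPM in AAV-GFP animals (log2 FC 2.87, SE 0.75). Adgre4, an adhesion G protein-coupled receptor of macrophages related to F4/80, had 34.9, 10 and 23.3 against 1.04, 2.07 and 8.32 CPM (log2 FC 2.58, SE 0.88). The gap between A2A-2344 and GFP-2331 was small for this gene. The cannabinoid receptor 2 gene Cnr2, which among brain cells is found in microglia, had 33.2, 67.4 and 37.1 CPM against 2.21, 4.08 and 18.8 CPM (log2 FC 2.46, SE 0.83). Lpar5 encodes a receptor of lysophosphatidic acid, a lipid mediator, and had 80.0, 61.7 and 35.0 CPM against 4.87, 6.81 and 32.9 CPM (log2 FC 1.99, SE 0.78). A2A-2347 and GFP-2331 nearly touched for Lpar5 under TMM. Against the homeostatic genes the picture was tighter, with 39.6, 37.0 and 43.0 scaled CPM in AAV-A2A and 15.1, 11.5 and 17.3 in AAV-GFP animals.

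Among genes of signalling between cells, Tgfbr1 encodes the type I receptor of transforming growth factor beta, on which the homeostatic state depends. It had 450, 1487 and 747 CPM in AAV-A2A and 71.3, 115 and 363 CPM in AAV-GFP animals (log2 FC 2.29, SE 0.78). On the homeostatic scale, which its own counts help to set, A2A-2343 (223 scaled CPM) was hardly above GFP-2328 (221). Sema4d, a transmembrane semaphorin that binds plexins, had 186, 573 and 320 against 20.1, 41.9 and 116 CPM (log2 FC 2.60, SE 0.76). Emilin2, which encodes a glycoprotein of the extracellular matrix, had 18.1, 16.4 and 22.8 against 1.62, 1.31 and 8.80 CPM (log2 FC 2.29, SE 0.80). As with Itgax, its 3 AAV-A2A libraries were close to each other under TMM. On the homeostatic scale they spread, at 8.95, 9.86 and 28 against 5, 2.21 and 4.63 scaled CPM.

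The remaining genes of the set have varied roles. Mpeg1 encodes perforin-2, a pore-forming protein of macrophages, and had 430, 655 and 497 CPM against 49.9, 86.2 and 219 CPM (log2 FC 2.16, SE 0.61). The multidrug resistance transporter gene Abcc3 had 172, 628 and 316 CPM against 20.6, 39.9 and 125 CPM (log2 FC 2.58, SE 0.81). Themis2, a signalling adaptor of B cells and macrophages, had 152, 231 and 137 CPM against 13.4, 28.2 and 92.5 CPM (log2 FC 1.96, SE 0.71). In these 3 genes GFP-2328 was the lowest library and GFP-2331 the control nearest to the AAV-A2A libraries. Trim36, which encodes a ubiquitin ligase, had 49.1, 87.8 and 43.3 against 5.93, 11.3 and 21.2 CPM (log2 FC 2.23, SE 0.55). Dna2, a nuclease and helicase of DNA replication and repair, had 15.6, 8.83 and 13.6 against 0.729, 2.02 and 3.55 CPM (log2 FC 2.59, SE 0.66). For both, every AAV-A2A library was well above GFP-2331, the highest control.

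**Figure D3:**
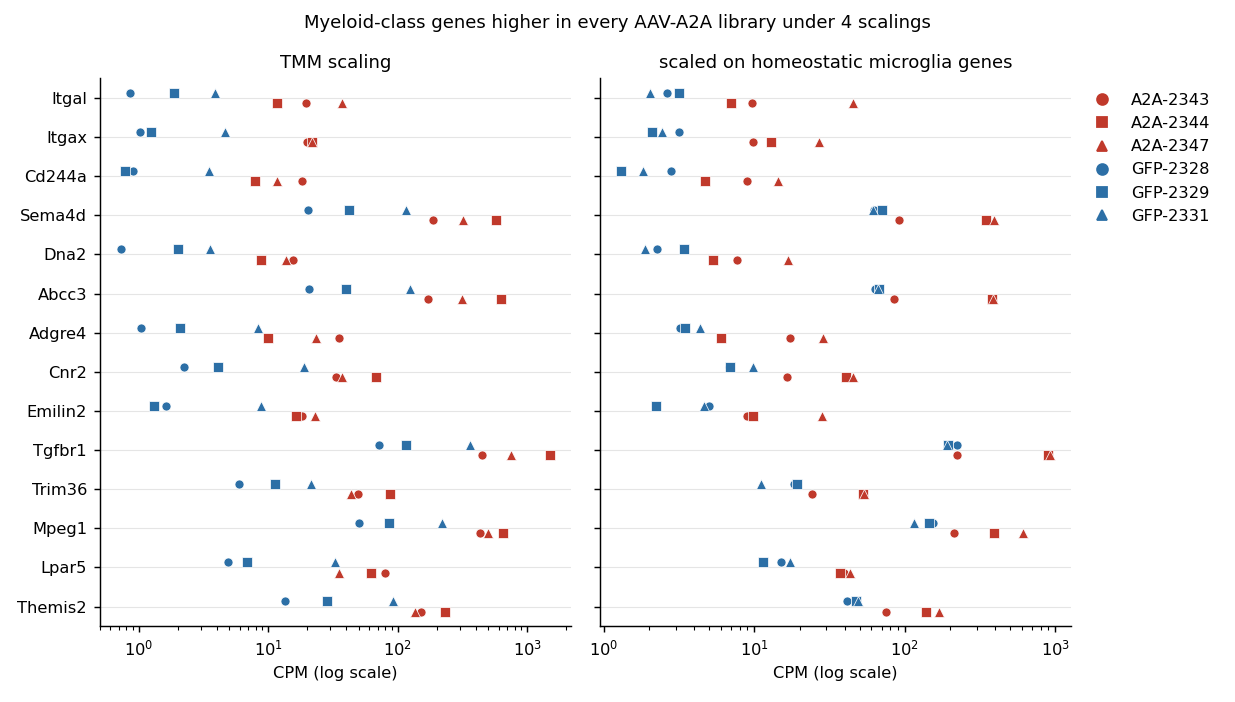
CPM (log scale) of the 14 genes of the myeloid class with a mean of at least 5 CPM that were higher in every AAV-A2A library under all 4 scalings, on the left after TMM normalization and on the right after scaling on the homeostatic microglia genes, with 1 symbol per library. GFP-2331 (blue triangle) is the control nearest to the AAV-A2A libraries on the left, whereas on the right the 3 AAV-GFP libraries lie close together for most genes.

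Further genes with large differences were separated under only some of the scalings. Among the 12 genes of the class with the largest log2 FC under TMM, Vav2, a guanine nucleotide exchange factor, had 37.2, 239 and 120 against 8.10, 14.5 and 27.2 CPM (log2 FC 2.99, SE 0.77) but overlapped on the homeostatic scale. The same held for Ipcef1 (log2 FC 2.68, SE 0.71), the zinc finger gene Zfat (2.63, SE 0.59) and Elf4, an ETS transcription factor (2.5, SE 0.76). Pcdhgb2, a protocadherin gene that shares exons with its cluster so that its count is uncertain, was separated under 3 of the 4 scalings (2.79, SE 0.66). Csf1r, the receptor on which microglia depend for survival, was the most abundant of the genes higher under both TMM and the homeostatic scaling. It had 11534, 18964 and 8898 CPM against 1394, 2606 and 7833 CPM (log2 FC 1.74, SE 0.83; edgeR adjusted p = 0.352). On the homeostatic scale, to which it contributes, the values were 5707, 11379 and 10932 against 4311, 4392 and 4120. With the length and GC trend removed and no further scaling its groups overlapped, and its log2 FC was then 1.23.

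Several regulators of immune responses were, like Csf1r, separated under TMM and on the homeostatic scale. The interleukin 10 receptor gene Il10ra had 891, 1415 and 824 CPM against 124, 229 and 445 CPM (log2 FC 1.97, SE 0.58). Prdm1, which encodes the repressor Blimp-1, had 40.1, 44.9 and 29.2 against 3.49, 7.09 and 16.9 CPM (2.05, SE 0.60). The receptor of bacterial flagellin, Tlr5, had 13, 26.7 and 10.5 against 1.38, 2.39 and 8.80 CPM (2.00, SE 0.79). Nckap1l, the haematopoietic subunit of the WAVE complex that drives actin assembly, showed 537, 1087 and 516 CPM beside 67.2, 119 and 350 CPM (1.99, SE 0.71). A2A-2347 was close to GFP-2331 for Tlr5, and closer still for Slfn8, an interferon-stimulated gene with close relatives (43.9, 64.9 and 29.3 against 5.24, 8.99 and 27.9 CPM). Prdm1, Tlr5, Nckap1l and Slfn8 overlapped when the length and GC trend alone was removed and were separated again with the homeostatic scaling added. Il10ra did the reverse, since it overlapped with the offset and the homeostatic scaling together and was separated under the other 3.

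Under TMM few genes of the class were lower in every AAV-A2A library, while on the homeostatic scale the lower ones (266, or 9.33%, of which 122 had at least 5 CPM) outnumbered the higher ones (138, or 4.84%). Of the 67 under TMM, 9 had a mean of at least 5 CPM. Sdf2l1, which encodes an endoplasmic reticulum protein induced by unfolded proteins, was the most strongly lower of these, with 258, 131 and 142 CPM against 294, 447 and 525 CPM (log2 FC -1.25, SE 0.43; edgeR adjusted p = 0.283). Casp4, the inflammatory caspase that senses cytosolic lipopolysaccharide, had 13.4, 14.2 and 6.30 against 17.4, 27.6 and 25 CPM (-1.05, SE 0.42). These genes and Gm45546 (-1.18, SE 0.51) were also lower on the homeostatic scale. Zfp54 was lower by less (log2 FC -1.0, SE 0.45), as were Alox12 (-0.82, SE 0.51), the immediate early gene Ier3 (-0.63, SE 0.37), Gm26532 (-0.61, SE 0.28) and Bmx (-0.56, SE 0.42). None of the 9 was separated under all 4 scalings, and Ier3 and Gm26532 had a positive log2 FC (0.23 and 0.57) once the length and GC trend was removed. The 12 class genes that were lower under all 4 had a mean of 0.311 to 4.25 CPM over both groups, and Rbfox1 among them had 6.39 CPM in AAV-GFP animals. None of the 12 was in a myeloid list, beside 3 of the 29 higher under all 4 and 281 of the 2850 genes of the class.

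The genes most used to identify microglia overlapped between the groups under TMM. P2ry12 had 7100, 4670 and 1729 CPM in AAV-A2A and 1042, 1930 and 6386 CPM in AAV-GFP animals (log2 FC 0.53, SE 0.87; edgeR adjusted p = 0.786). Tmem119 (log2 FC 0.69, SE 0.88), Olfml3 (0.55, SE 0.87), the purine receptor gene P2ry13 (0.86, SE 0.86), Cx3cr1 (0.34, SE 0.89), the lysosomal protease gene Ctsd (0.39, SE 0.73), the lipid receptor gene Trem2 (0.14, SE 0.84), Cd68 (0.48, SE 0.89) and Aif1, which encodes Iba1 (-0.06, SE 0.71), each had a standard error as large as or larger than the difference. The sign of the log2 FC changed with the scaling or with a library left out for all of these but Tmem119 and P2ry13. Against the summed homeostatic genes P2ry12 was 3513, 2802 and 2124 beside 3222, 3253 and 3359 scaled CPM, and Tmem119 was 3567, 3768 and 3109 beside 2900, 3245 and 3731. Both genes help to set that scale, so their spread on it is limited by construction. Aif1 was separated lower on the homeostatic scale alone, at 201, 113 and 154 against 276, 313 and 249 scaled CPM (log2 FC -0.84, SE 0.61), but its log2 FC was 0.81 with the length and GC trend removed. P2ry13 (log2 FC 0.49) and Cd68 (0.57) were separated higher with the offset and the homeostatic scaling together and under no other scaling.

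The myeloid lists are described by their separated members, to be read against 12.6% higher and 10.9% lower over all tested genes under TMM, and 0.979 and 8.47% on the homeostatic scale. The median log2 FC over all tested genes was -0.05 under TMM and -1.20 on the homeostatic scale. Of 69 genes of myeloid receptors and their adaptors, 15 were higher and 0 lower under TMM (median log2 FC 0.89), and 18 were higher and 4 lower on the homeostatic scale (median 0.22). Among 42 genes of Toll-like receptors and NF-kB, 12 were higher and 1 lower (median 0.75), which became 8 and 1 (median -0.19). Of the 32 homeostatic genes 6 were higher and 0 lower (median 0.59), and 7 and 6 on the scale they set themselves (median -0.05). Myeloid transcription factors had 6 higher and 1 lower of 27 (median 0.70), then 3 and 1 (median -0.20). Complement genes had 5 higher and 0 lower of 18 (median 0.26), then 4 and 2 (median -0.35). Cytokines and chemokines with their receptors had 7 and 1 of 49 (median 0.39), then 6 and 7 (median -0.57). Each of these lists also had members higher on the homeostatic scale. On it all of their medians lay above that of all tested genes, and only that of the receptors was above 0. On that scale the receptor genes higher in every AAV-A2A library included Itgal, Itgax and Csf1r, and the Toll-like receptor genes included Tlr5.

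Lists of responding microglia had few members higher against the homeostatic genes, as had all tested genes. On that scale 0.979% of all tested genes were higher and 8.47% lower, and the counts are to be read against these shares. Of 29 genes of disease-associated microglia, a state described in models of neurodegeneration, 6 were higher and 1 lower under TMM (median 0.29). On the homeostatic scale Itgax was the only higher gene of this list and 6 were lower (median -0.44). Interferon-stimulated genes had 4 higher and 4 lower of 49 (median 0.17), then 1, Slfn8, and 7 (median -0.84). Antigen presentation genes had 1 higher of 23, the class I gene H2-Q6 (36.1, 15.3 and 19.3 against 10.5, 13.8 and 13.8 CPM, with a log2 FC of 0.89 that became -0.31 on the homeostatic scale), and 0 lower (median 0.44). They had 0 and 3 on the homeostatic scale (median -0.38). H2-Q6 has near-identical neighbours, so its count is uncertain.

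Medians of lists of cell functions fell on the homeostatic scale too, as did that of all tested genes, from -0.05 to -1.20. Lysosome genes had 9 higher and 0 lower of 48 under TMM (median 0.39) and 2 and 4 on the homeostatic scale (median -0.43). Actin and motility genes had 6 and 0 of 35 (median 0.66), then 3 and 4 (median -0.09). Phagocytosis and lipid uptake had 4 and 1 of 29 (median 0.42), then 2 and 2 (median -0.38), with a summed share of 1.96, 1.7 and 1.87% against 1.42, 1.45 and 1.67% that did not overlap (exact permutation p = 0.1, adjusted p = 0.427), and purine receptors and enzymes had 3 and 1 of 20 (median 0.47), then 3 and 2 (median -0.30). For the other myeloid cells that CD11b beads collect, border macrophages had 3 higher and 0 lower of 25 (median 0.55), then 0 and 3 (median -0.21), while monocytes and neutrophils had 0 and 1 of 27 (median 0.22), then 1 and 6 (median -0.54). Their summed shares were 0.143, 0.161 and 0.161% against 0.0587, 0.0773 and 0.156% for border macrophages, and 0.136, 0.13 and 0.0831% against 0.0393, 0.0492 and 0.134% for monocytes and neutrophils. Both groups of libraries overlapped in these shares, and their part in the differences of single genes was not tested.

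**Figure D4:**
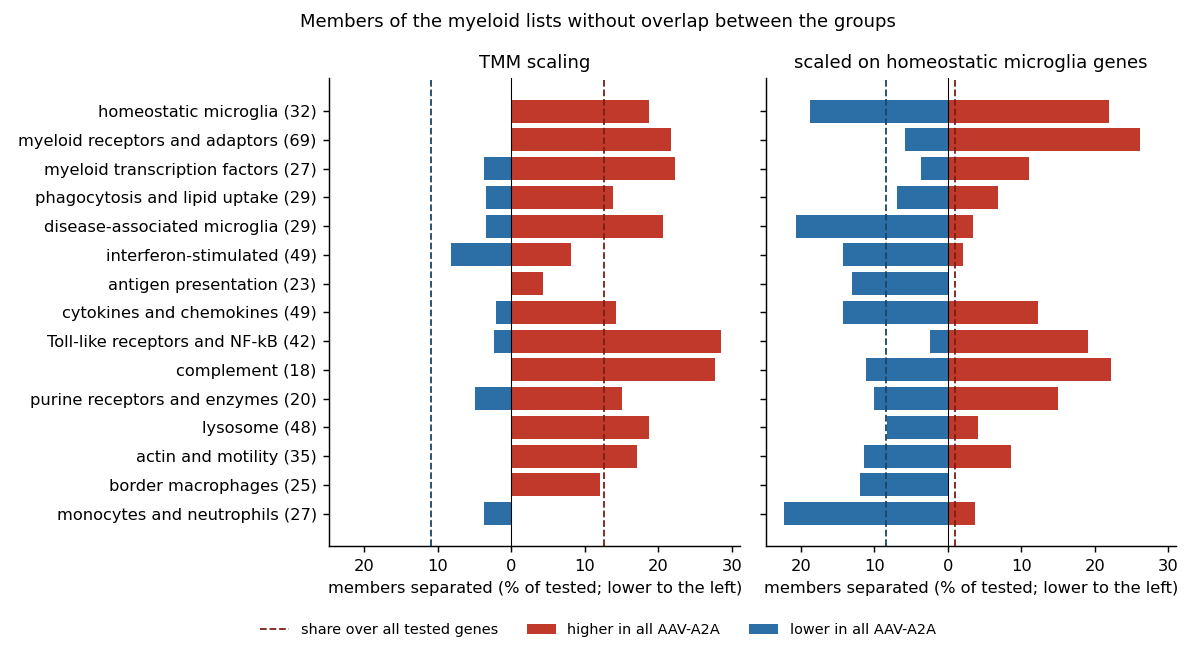
Percent of the tested members of each myeloid list (number tested in brackets) that were higher (red, to the right) or lower (blue, to the left) in every AAV-A2A library, after TMM normalization and after scaling on the homeostatic microglia genes. Dashed lines give the shares over all 16949 tested genes, 12.6% and 10.9% on the left panel and 0.979% and 8.47% on the right.

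Some members of these lists were outside the class. Axl, a receptor of apoptotic cells, had 104, 161 and 169 CPM in AAV-A2A and 29.6, 25.8 and 47.2 CPM in AAV-GFP animals (log2 FC 2.08, SE 0.36; edgeR adjusted p = 0.28). On the homeostatic scale Axl overlapped, at 51.6, 96.7 and 208 against 91.5, 43.5 and 24.8 scaled CPM (log2 FC 1.16), and its log2 FC was 0.54 with the offset added. C4b, a complement component with a near-identical neighbour, had 28.6, 73.9 and 80.8 against 3.31, 1.43 and 6.65 CPM (log2 FC 4.01, SE 0.71) and was separated under all 4 scalings. In the ACSA-2 libraries Axl was at 224, 147 and 182 CPM in AAV-A2A and 412, 452 and 508 CPM in AAV-GFP animals (log2 FC -1.33, SE 0.19; edgeR adjusted p = 0.00567), and C4b was at 119, 104 and 92.8 against 81.6, 105 and 84.8 CPM (log2 FC 0.20, SE 0.18; edgeR adjusted p = 0.749). Both were thus more abundant in the astrocyte fraction, where Axl was lower and C4b did not differ beyond its spread. Mrc1, the mannose receptor of border macrophages, had 53.1, 54.3 and 97.3 against 10.4, 12.0 and 38.9 CPM (log2 FC 1.74, SE 0.59), and S100a6 had 11.6, 2.12 and 7.81 against 13, 16.8 and 14.9 CPM (log2 FC -1.05, SE 0.62).

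The 29 class genes higher under all 4 scalings were scarce in the ACSA-2 fraction. This follows partly from the definition of the class, which asks for a lower level there, and it limits how many could be tested or called. There 10 of them passed the filter on low counts, 0 were called by edgeR and 2 had an unadjusted p under 0.05, beside 0.176% called higher and 3.19% called lower over all genes of that comparison. Of the 10, 5 had a positive log2 FC.

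Lists of other cells and of general cell functions are given for the whole fraction under TMM. Their counts are to be read against 12.6% higher and 10.9% lower over all tested genes. Endothelial genes had 1 higher and 14 lower of 30 (median log2 FC -0.83), neuronal genes 2 and 10 of 31 (median -1.97), erythroid genes 0 and 10 of 17 (median -2.11), ependymal genes 0 and 8 of 24 (median -1.51), astrocyte genes 0 and 3 of 24 (median -0.58), and choroid plexus genes 0 and 0 of 25 (median -0.96). Oligodendrocytes and their precursors each had 0 and 1 (of 22 and 14, median -0.72 and -0.63), mural cells and fibroblasts 0 and 4 of 25 (median -0.02), and lymphocytes 1 and 0 of 24 (median -0.19). The most abundant genes of these lists included Ttr, the transthyretin of the choroid plexus, at 57.4, 5.04 and 27421 CPM against 72380, 59170 and 77.2 CPM, and the haemoglobin gene Hbb-bs, at 107, 78.7 and 31.4 against 1215, 3520 and 524 CPM (log2 FC -4.60, SE 0.92). Hbb-bs has a near-identical neighbour. The nuclear genes of the respiratory chain had 0 higher and 20 lower of 78 (median -1.50), the mitochondrially encoded genes 0 and 5 of 8 (median -2.34), cytosolic ribosomal proteins 1 and 34 of 82 (median -0.82), and autophagy genes 14 and 2 of 47 (median 0.48). With the length and GC trend removed these medians were -0.60, -1.12, -0.02 and 0.39, beside 0.09 over all tested genes. On the homeostatic scale the median of the autophagy genes was -0.69, with 0 members higher. Over all tested genes it was -1.20 there, with 0.979% higher. The count of lower genes also depended on the scaling, as did the share lower over all tested genes. That share was 8.47% on the homeostatic scale, 6.91% with the trend removed and 6.49% with both. For the mitochondrially encoded genes the count was 0 under each of the other 3 scalings. For ribosomal proteins it was 19 on the homeostatic scale, 8 with the trend removed and 2 with both, and for the respiratory chain 4, 6 and 1. The remaining lists held 2 higher and 7 lower of 33 for antioxidant genes (median -0.45), 1 and 2 of 26 for immediate early and heat shock genes (median 0.03) and 0 and 2 of 6 for nuclear long noncoding RNA (median -1.39). Malat1, a nuclear RNA, had 371, 342 and 175 against 1183, 902 and 803 CPM (log2 FC -1.70, SE 0.45) and was lower under all 4 scalings. The summed shares of the mitochondrially encoded, ribosomal protein, antioxidant and nuclear long noncoding genes, like that of the erythroid genes, were lower in every AAV-A2A library (exact permutation p = 0.1 each, adjusted p = 0.427). Of the neuronal genes 3 were at 0 in all AAV-A2A libraries, of the erythroid genes 2, and of the oligodendrocyte and ribosomal protein genes 1 each, while no list of other cells had a member at 0 in all AAV-GFP libraries. The part of these in the differences of the myeloid genes was not tested.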

How the data were processed

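RNA of hippocampal cell suspensions was sequenced in 12 libraries as full-length, polyA-primed cDNA (SMART-Seq v4, Nextera XT) without molecular identifiers. Per the labels, the authors trimmed reads with cutadapt 1.10, aligned them with STAR 2.5.3 to mm10 and counted them with HTSeq 0.6.1p1; the deposited values are raw counts per Ensembl gene. The strand setting is not given in the sources used here, so overlapping and antisense genes cannot be told apart, and reads of near-identical genes are uncertain. Of 30359 identifiers 30289 had a symbol, and the others held 0.0454 to 0.074% of the counts; 25 unnamed empty columns were not used. Coordinates, lengths and GC content come from the GRCm38 annotation.

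Counts of the 6 CD11b libraries were fitted with edgeR 4.0.16 in R 4.3.3 (TMM, filterByExpr, robust quasi-likelihood test, Benjamini-Hochberg adjustment). Called genes had an adjusted p under 0.05 with a log2 FC beyond 0.32 in either direction. DESeq2 1.42.0 and limma 3.58.1 served as alternatives. The homeostatic scaling divides by the summed counts of 32 genes. The length and GC offset, added after seeing the data, used natural splines with 5 degrees of freedom each and covered 99.91% of the tested genes. The class used a prior count of 2. Replicate pairs differed beyond counting noise (chi-square per degree of freedom 103 to 874).

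Genes named were the 12 largest separated differences per direction in the class (mean of at least 5 CPM), the largest of each myeloid list, the most abundant of each other list, and genes the study sorted on or measured; a few of these are not reported here. The members and lists were chosen with earlier results of these data known. The fit was run on simulated counts in which all libraries shared the same gene means, apart from the genes changed on purpose. That run does not cover the unequal RNA composition of these libraries.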

Additional observations from a re-analysis of the deposited data

Results flagged for a closer look

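For 4 of the genes named, the difference between AAV-A2A and AAV-GFP libraries was unlike in the CD11b and ACSA-2 fractions. This rests on an interaction term in an edgeR quasi-likelihood fit of all 12 libraries under TMM. Over all 18995 genes of that fit, the term called 67 higher and 7 lower. The fit shares its dispersion with the ACSA-2 libraries, which may vary less. The part of the unequal RNA composition of the CD11b libraries in this term was not tested. Axl had a difference of log2 FC, CD11b minus ACSA-2, of 3.44 (SE 0.44, n = 3 per group; edgeR adjusted p = 0.0449), being higher under TMM in every AAV-A2A library of CD11b-positive cells, though not on the homeostatic scale (log2 FC 1.16), and lower in every AAV-A2A library of ACSA-2-positive cells. For C4b the difference was 3.82 (SE 0.71; edgeR adjusted p = 0.0490), with a CD11b log2 FC of 4.01 beside 0.20 in the ACSA-2 fraction. The proteoglycan gene Cspg4, a marker of oligodendrocyte precursors and pericytes, differed by 3.23 (SE 0.55; edgeR adjusted p = 0.0449). It had 55.1, 114 and 77.7 CPM against 33.3, 28.1 and 60.3 CPM in the CD11b fraction (log2 FC 1.02, SE 0.42) and 74.9, 55.1 and 42 CPM against 180, 285 and 297 CPM in the ACSA-2 fraction (log2 FC -2.17, SE 0.24; edgeR adjusted p = 0.00226). For Itgal the fitted difference was 10.25 (SE 1.53; edgeR adjusted p = 0.0449). The ACSA-2 libraries of AAV-A2A animals all had 0 counts of Itgal and those of AAV-GFP animals 0.656, 0.176 and 0.215 CPM, so this size depends on the prior count and is no bound.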

How the results depend on the processing

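No gene was called by edgeR without any 1 of the 6 libraries, but limma-voom with sample weights called 2783 and DESeq2 455. Genes separated higher numbered 166 on the homeostatic scale and 1359 with the length and GC trend removed, and those lower 1171 with the trend removed. In the myeloid class the higher genes numbered 138 on the homeostatic scale, 337 with the trend removed, 170 with both, 152 with a class difference of at least 4 and 78 in the hand-written lists alone. The lower ones numbered 266 on the homeostatic scale, 178 with both, 13 with a mean of at least 5 CPM filter, 6 with a class difference of at least 4 and 10 in the hand-written lists. The median log2 FC of the class was -0.30 on the homeostatic scale and -0.28 with both, beside -1.20 and -1.15 over all tested genes. Leaving out 1 library gave 2338 to 4233 genes higher and 2197 to 4823 lower, 661 to 1354 and 88 to 221 in the class, and a class median of 0.42 to 1.11; fewer libraries overlap less by construction, and the upper ends were without GFP-2331.

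Of 1368 alternative values of single named genes, 1241 kept their direction and side of the threshold, 82 passed it (52 with limma-voom, 30 with DESeq2) and 45 changed sign. The log2 FC changed sign on the homeostatic scale for H2-Q6 (-0.31), Rtn1 (-0.70), Ighm (-0.22), Fos (-1.03), P2ry12 (-0.22), Olfml3 (-0.03), Cx3cr1 (-0.29), Ctsd (-0.39), Trem2 (-0.54) and Cd68 (-0.07). With the trend removed it did so for Ier3 (0.23), Gm26532 (0.57), Vtn (0.44), Rpl4 (0.52), Trem2 (-0.11) and Aif1 (0.81). With both it did so for H2-Q6 (-0.15), Rtn1 (-1.17), Cspg4 (-0.65), Fos (-0.79), Olfml3 (-0.53), Cx3cr1 (-0.67), Ctsd (-0.24), Trem2 (-0.95) and Aif1 (0.02). With limma-voom these were Vtn (0.63), Fos (-0.02) and Aif1 (0.22), and Vtn was 0.02 with no filter on low counts and 0.01 with all 12 libraries in one fit. Leaving out 1 library in turn gave values on both sides of 0 for Vtn (-0.37 to 0.72), Rpl4 (-0.62 to 0.01), Fos (-0.13 to 0.39), Cx3cr1 (-0.24 to 1.56), Trem2 (-0.44 to 1.21), Cd68 (-0.07 to 1.94) and Aif1 (-0.66 to 0.81), with the highest value without GFP-2331 for Cx3cr1, Trem2, Cd68, Aif1 and Vtn. The cause was not tested. No paired analysis was possible because the 2 groups share no replicate numbers.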
